A study of Homo sapiens with 12 samples.

Results

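The genes described here drive the passage of a cell from the G1 phase into S phase. They are the D-type cyclins CCND1, CCND2 and CCND3, the E-type cyclins CCNE1 and CCNE2, the A-type cyclin CCNA2, the cyclin-dependent kinases CDK4, CDK6 and CDK2, and the transcription factor E2F1. They were chosen by name as the core of the G1 to S machinery, and all 10 were found among the 60671 genes of the count table. RNA-sequencing had been performed on BJ-5ta cells, a fibroblast line immortalized with hTERT, in 4 groups of 3 libraries. WT_10 held wild-type cells in medium with 10% serum, and WT_01 held wild-type cells after 10 days in 0.1% serum, the condition used to obtain quiescent cells. Leo1_10 and Leo1_01 held ΔLEO1 cells in the same 2 media. The ΔLEO1 cells came from 1 clone in which CRISPR/Cas9 had been directed at LEO1, a subunit of the PAF1 complex that accompanies RNA polymerase II. What belongs to the knockout and what belongs to the clone therefore cannot be told apart. The labels do not say whether the 3 libraries of a group were separate cultures, so the p-values measure the spread between these libraries only.

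In the textbook account, growth factors in serum raise the D-type cyclins, which bind CDK4 or CDK6 and begin to phosphorylate the retinoblastoma protein. The phosphorylated protein releases E2F1 and its relatives, which switch on the E-type cyclins, CCNA2 and their own genes. Cyclin E with CDK2 completes that phosphorylation, and cyclin A with CDK2 then acts through S phase. Fibroblasts without serum leave this cycle for the G0 state, and the D-type cyclins are known as the part of the machinery that reads the serum signal.

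The libraries held 26240632 to 45315560 counts on genes, and synthetic ERCC transcripts, added to every RNA sample as a common yardstick, made up 0.625% to 3.24% of all counts. The Wilson 95% interval of that share was at most 0.012 percentage points wide, counting error only. Values are given on 2 scales. An ERCC-scaled count is a gene's count per 1000000 counts on the ERCC transcripts, and it follows the amount of a transcript relative to the added standard. A gene-scaled CPM is a count per 1000000 counts on genes, adjusted by the TMM method, and it follows a transcript's share among all others. In these bulk samples fewer cycling cells, less RNA per cell and a different amount of RNA taken into a library cannot be told apart. The paper gives a range of starting RNA amounts and names no scaling to cell number. Within Leo1_01 alone the ERCC share ran from 1.09% to 3.24%. LEO1 itself read 759 to 2942 ERCC-scaled counts in the wild-type libraries and 34.8 to 216 in the ΔLEO1 libraries, so the targeted gene matched the labels in all 12. All 8 fibroblast markers tested were abundant, with 51900 to 75571 CPM in sum, and all 4 endothelial markers stayed under 1 CPM, at most 0.987 CPM in sum. Markers of other types differed by genotype. The 4 epithelial markers summed to 263 to 399 CPM in WT_10, 96.2 to 101 CPM in WT_01, 818 to 1114 CPM in Leo1_10 and 469 to 559 CPM in Leo1_01. Nearly all of that was KRT18, while EPCAM and KRT5 stayed at or under 0.229 CPM and CDH1 at or under 1.42 CPM. The 4 leukocyte markers summed to 0.995 to 1.70 CPM in wild-type and 2.68 to 8.24 CPM in ΔLEO1 libraries, with PTPRC up to 7.10 CPM, CD14 up to 1.43 CPM and CD3E at or under 0.0381 CPM. Their part in the genotype comparisons was not tested. In each group the highest-numbered library (3, 6, 9 and 12) stood apart from the other pair. Chi-square per gene was 59.6 to 129 for pairs that held it and 2.87 to 11.1 for the other pair. The sum of 4 cycling markers (MKI67, TOP2A, PCNA and BUB1) was 512, 502 and 146 CPM in the WT_10 libraries and 551, 614 and 332 CPM in those of Leo1_10. It was 213, 193 and 330 CPM in WT_01 and 308, 305 and 462 CPM in Leo1_01. The highest-numbered library was thus the lowest of its group in 10% serum and the highest of its group in 0.1% serum.

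The first question was how the G1 machinery differed between cells in 10% and in 0.1% serum. Most of it was lower in low serum, in wild-type and in ΔLEO1 cells. CCND3, CDK6, CCNE1, CCNE2, CCNA2, CDK2 and E2F1 fell in both genotypes, by 1.35 to 2.16 on the log2 scale of ERCC-scaled counts. CDK4 fell in ΔLEO1 cells, while CCND1, the most abundant member, did not pass the test in either genotype. CCND2 was close to absent and was left out of this test by the filter on low counts. In edgeR's likelihood ratio test with Benjamini-Hochberg adjustment over 13236 genes, 7 of the 9 tested members were lower in WT_01 than in WT_10 at an adjusted p under 0.05, where 36.1% of all tested genes were. In ΔLEO1 cells 8 of the 9 were lower, where 47.2% of all tested genes were. These counts rested on single libraries, for all genes as for the members. Without library 10 of Leo1_01, 2 members and 638 genes were lower in ΔLEO1 cells, without library 11 it was 5 members and 1088 genes, and without library 4 of Leo1_10 it was 3 members and 838 genes. Without library 12 all 9 members and 11684 genes were lower. In wild-type cells 5 members were lower without library 1, 2, 7 or 9, beside 1147 to 1790 genes. No member was higher, against 0.944% and 0.975% of all genes. The median log2 change of the members was -1.71 in wild-type cells and -1.71 in ΔLEO1 cells, beside -0.97 and -1.05 for all tested genes. The lowest 10% serum library lay above the highest 0.1% serum library for 6 of the 9 members in wild-type cells, against 53.4% of all genes, and for 8 of the 9 in ΔLEO1 cells, against 50.9%. The first of these shares is not far above its background.

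Because most genes were lower per ERCC count, the same libraries were also compared by each transcript's share among all transcripts. By this measure the median of all genes lay at 0.00 in wild-type and 0.01 in ΔLEO1 cells. CCND3, CDK6, CCNE2, CDK2 and E2F1 were lower in WT_01 (5 members, against 16.6% of all genes) and CDK4 was higher (1 member, against 16.0%). In ΔLEO1 cells CCND3, CDK6 and CCNE2 were lower (3 members, against 12.9%) and none was higher, against 16.5%. CCNE1 and CCNA2 did not pass on this scale in either genotype.

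**Figure D1:**
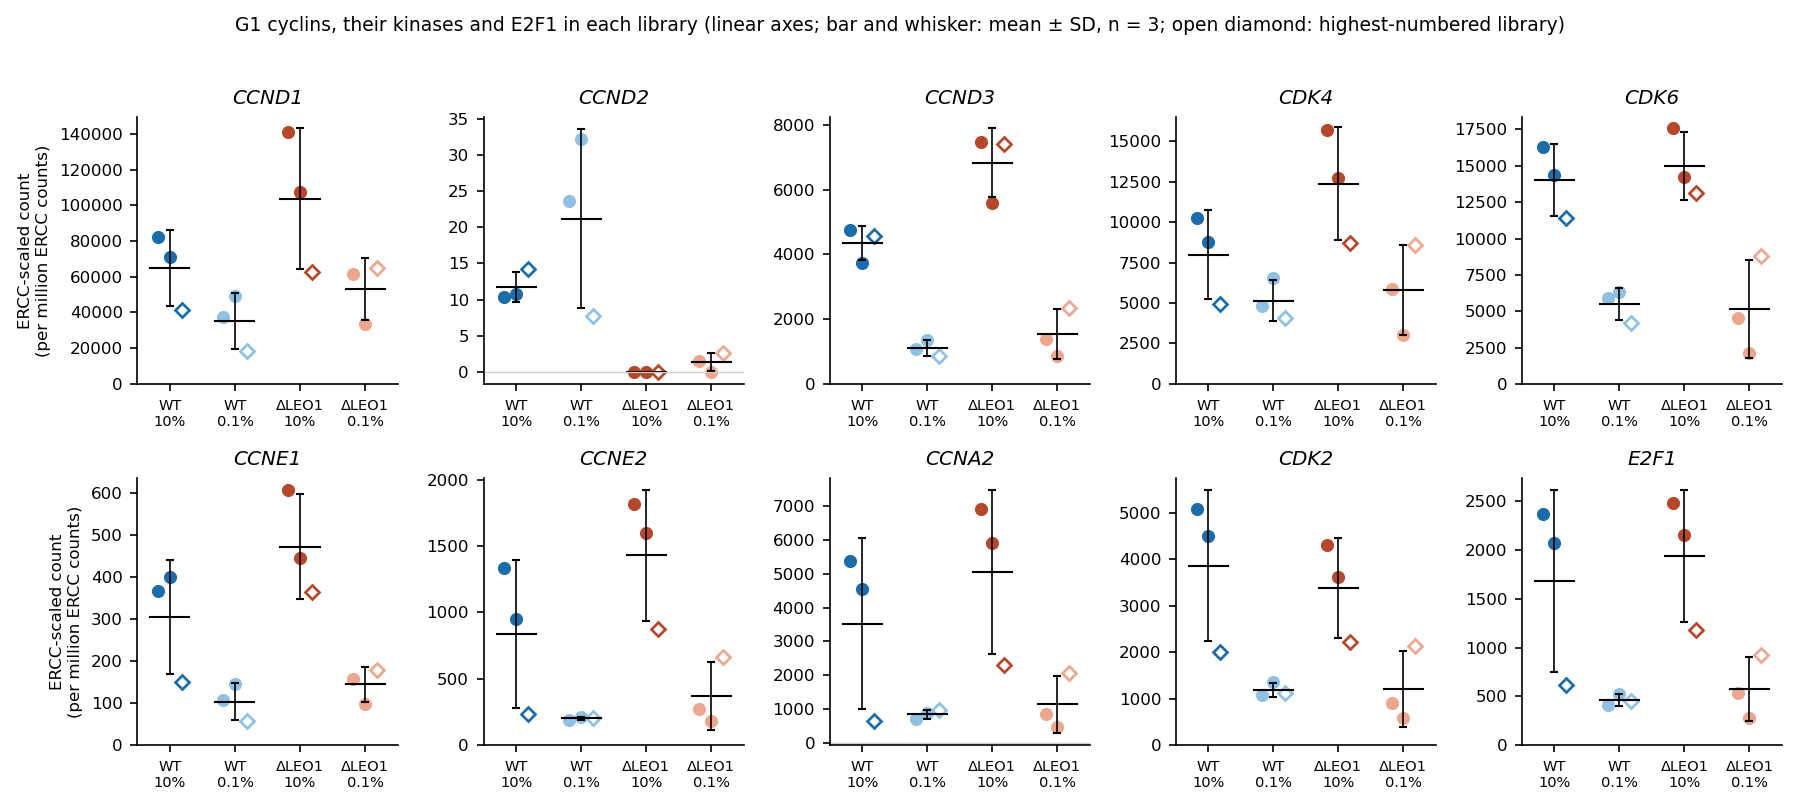
ERCC-scaled counts (linear axes) of the 10 genes in each of the 12 libraries, by group; filled circles are the lower-numbered libraries, open diamonds the highest-numbered library, and bars with whiskers the mean ± SD (n = 3). In WT_10 the open diamond sits far below the other libraries for CCNE1, CCNE2, CCNA2, CDK2 and E2F1 but not for CCND3, and CCND2 stays at or under 32.2 throughout.

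**Figure D2:**
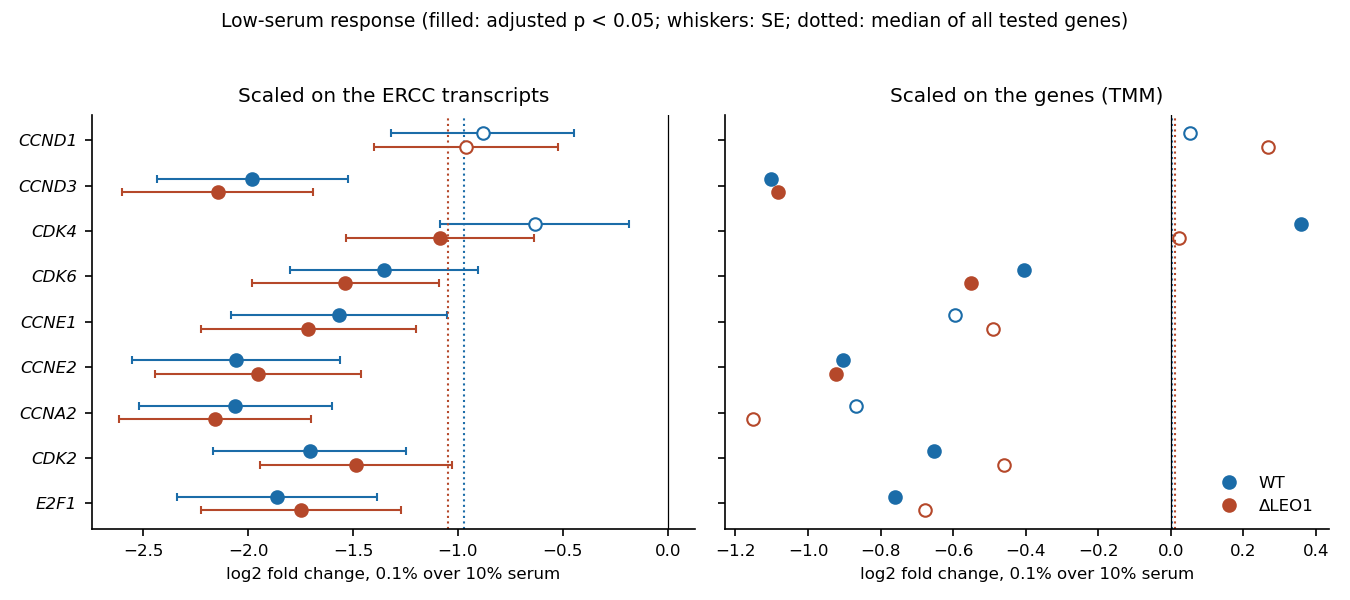
Log2 fold change of 0.1% over 10% serum for the 9 tested members in wild-type (blue) and ΔLEO1 (red) cells, on the ERCC scale with SE (left) and on the gene scale (right). Filled points have an adjusted p under 0.05 and dotted lines mark the median of all tested genes; CCND3 lies left of that median by about the same distance on both scales, while CCND1 and CDK4 lie at or right of it in wild-type cells.

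CCND1 encodes cyclin D1, the D-type cyclin that fibroblasts use most, and spans chr11:69641087-69654474 on the plus strand (GRCh38, GENCODE annotation). Its ERCC-scaled counts were 82444, 71023 and 41318 in WT_10 and 37621, 49452 and 18557 in WT_01. They were 141149, 107502 and 62387 in Leo1_10 and 61490, 33296 and 64801 in Leo1_01. The ranges of the media overlapped in both genotypes, and in 10% serum the highest-numbered library was the lowest of its group. The log2 change in low serum was -0.88 ± 0.44 (SE, adjusted p = 0.0859) in wild-type and -0.96 ± 0.44 (adjusted p = 0.0563) in ΔLEO1 cells. Without the highest-numbered libraries it was -0.82 (adjusted p = 0.0383) and -1.39, so that CCND1 passed the test in both genotypes there. It also passed in wild-type cells without library 3 of WT_10 (-1.12, adjusted p = 0.0361) or without library 11 or 12 of Leo1_01, which enter through the shared dispersion. In ΔLEO1 cells it passed without library 3 (adjusted p = 0.0494), library 6 (0.0355) or library 12 (0.00852). As a share of all transcripts CCND1 read 615 to 695 CPM in WT_10 and 486 to 788 CPM in WT_01, a log2 change of 0.05 (adjusted p = 0.893). The gene-scaled values in Leo1_01 were 1192, 1094 and 671 CPM, of which 2 were the highest of all 12 libraries.

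CCND3 encodes cyclin D3 and spans chr6:41934933-42050357 on the minus strand. ERCC-scaled counts were 4736, 3738 and 4567 in WT_10 and 1085, 1361 and 857 in WT_01. In ΔLEO1 cells they were 7479, 5593 and 7391 in 10% serum and 1402, 865 and 2359 in 0.1% serum. Every low-serum library lay below every 10% serum library of its genotype. Library 12 was the highest of Leo1_01, and on the gene scale the highest-numbered libraries of 10% serum stood above the others, at 68.0 against 38.4 and 36.6 CPM in WT_10 and at 72.6 against 48.3 and 48.5 CPM in Leo1_10. CCND3 fell by 1.98 ± 0.46 in wild-type (adjusted p = 0.00057) and by 2.15 ± 0.45 in ΔLEO1 cells (adjusted p = 0.000259) on the log2 scale. It also fell on the gene scale, by 1.10 (adjusted p = 4.1e-05) and 1.08 (adjusted p = 6.22e-05). CCND3 was the one member that passed the test in wild-type cells when the lower-numbered pair of each group was summed into a single library (adjusted p = 0.0277). CCND3 and CCNA2 passed in both genotypes with any 1 library left out.

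CCND2 encodes cyclin D2 and spans chr12:4273772-4305350 on the plus strand. Its raw counts were 3, 4 and 8 in WT_10 and 17, 14 and 7 in WT_01. All 3 Leo1_10 libraries held 0 counts, and the Leo1_01 libraries held 1, 0 and 1. The gene thus did not reach the minimum of 1 CPM in 3 libraries. Over the summed group, scaled on the ERCC transcripts and with 3 counts put in for the group at 0, the level in WT_10 was 4.30-fold that in Leo1_10. This figure leaves out the counting error of the WT_10 counts and is not an interval limit. WT_01 stood at 19.8 times Leo1_01, with an exact 95% counting interval of 5.11 to 169. WT_01 and WT_10 differed by a ratio of 1.51 with an interval of 0.814 to 2.96, which includes no change. With no filter on low counts, CCND2 was lower in ΔLEO1 cells in both media (edgeR, smallest adjusted p = 0.0082 in 10% and 0.0011 in 0.1% serum). Of its exon stretches of 58 bases, 13.1% also occurred in the overlapping gene AC008012.1, which had 0 counts in all libraries. How counting treated the shared stretches is not given in the sources used here.

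Among the D-type cyclins CCND1 dominated in every library. Per kilobase of exon it made up 91.0% to 98.1% of their summed level, and CCND2 at most 0.0429%. The share of CCND1 was 91.6% to 95.8% in WT_10 and 96.3% to 97.7% in WT_01, with no overlap, and 91.0% to 95.8% in Leo1_10 against 97.1% to 98.1% in Leo1_01. A ratio of counts within a library does not depend on the scaling, so the pairs of related genes were compared that way as well. The log2 ratio of CCND3 to CCND1 was -4.12, -4.25 and -3.18 in WT_10 and -5.12, -5.18 and -4.44 in WT_01. In Leo1_10 it was -4.24, -4.26 and -3.08, and in Leo1_01 -5.45, -5.27 and -4.78. In both genotypes all 0.1% serum libraries lay below all 10% serum libraries. The mean difference by serum was -1.18 (exact two-sided permutation test within genotype, p = 0.005, the smallest the design allows; adjusted p = 0.0133 over 8 tests). By genotype it was -0.13 (exact permutation p = 0.63). The highest-numbered library had the highest ratio of its group in all 4 groups.

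CDK4 and CDK6 encode the kinases that the D-type cyclins activate. CDK4 spans chr12:57747727-57756013 and CDK6 spans chr7:92604921-92836594, both on the minus strand. CDK4 read 10261, 8784 and 4918 ERCC-scaled counts in WT_10 and 4822, 6527 and 4084 in WT_01. In Leo1_10 it read 15675, 12704 and 8723 and in Leo1_01 5890, 3021 and 8563. The media overlapped in wild-type cells, where the log2 change was -0.63 ± 0.45 (adjusted p = 0.208), and were separate in ΔLEO1 cells, where CDK4 fell by 1.09 ± 0.45 (adjusted p = 0.0407). That call was the least stable among the members' calls. It was lost in edgeR's quasi-likelihood test (adjusted p = 0.0559) and without library 2, 4, 5, 7, 10 or 11 (adjusted p up to 0.175), and on the gene scale the change in ΔLEO1 cells was 0.02. In wild-type cells the gene-scaled values were 83.3, 85.9 and 73.2 CPM in 10% serum and 99.9, 104 and 107 CPM in 0.1% serum. All 3 low-serum libraries were higher there (log2 change 0.36, adjusted p = 0.0289). Exons of the opposite-strand gene TSPAN31 cover 43.2% of the exon bases of CDK4. The library kit marks strand, but the strand setting of the counting is not given in the sources used here.

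CDK6 read 16318, 14364 and 11380 ERCC-scaled counts in WT_10 and 5939, 6304 and 4225 in WT_01. It read 17575, 14226 and 13111 in Leo1_10 and 4502, 2157 and 8825 in Leo1_01. The media did not overlap in either genotype. CDK6 fell by 1.35 ± 0.45 (adjusted p = 0.0169) and by 1.54 ± 0.45 (adjusted p = 0.00867), and on the gene scale by 0.40 (adjusted p = 0.0184) and 0.55 (adjusted p = 0.000992). In wild-type cells the ERCC-scale call was lost without library 1, 2, 7 or 9 (adjusted p up to 0.112), and in ΔLEO1 cells without library 4, 10 or 11 (up to 0.0812). Without library 12 of Leo1_01 CDK6 fell by 2.17 in ΔLEO1 cells.

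Set against each other within a library, CDK6 was the higher count in 10% serum. The log2 ratio of CDK6 to CDK4 was 0.67, 0.71 and 1.21 in WT_10 and 0.30, -0.05 and 0.05 in WT_01. It was 0.17, 0.16 and 0.59 in Leo1_10 and -0.39, -0.49 and 0.04 in Leo1_01. The balance stood lower in low serum (mean difference -0.67, exact permutation p = 0.005, adjusted p = 0.0133) and lower in ΔLEO1 cells (-0.47, exact permutation p = 0.015, adjusted p = 0.03). By genotype the libraries were separate in 10% serum (difference -0.56) and overlapped in 0.1% serum (-0.38). These are ratios of counts. Per kilobase of exon CDK4 was the more abundant kinase in every group, with a mean of 25.5 ± 2.11 against 12.03 ± 1.59 gene-scaled CPM per kilobase (SD, n = 3) in WT_10. That order rests on the length of all annotated exons, 3168 bases for CDK4 and 12260 for CDK6. Which transcripts the cells held was not tested.

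The promoter sequence of CDK4 is of interest because its E-boxes (CACGTG) are the class of element bound by MYC and related factors. RefSeq promoter windows, from 250 bases before to 50 after a gene's start, were at hand for 6 of the 10 genes, 9 windows in all (GRCh38.p14). CACGTG occurred 3 times in the CDK4 window and once in 1 of the CDK6 windows, and in 7.26% of all 35116 windows. The stretch chr12:57752499-57752528 (minus strand) holds 2 of the 3 copies, shown in capitals.
CDK4: gtCACGTGtgatagcaacagatCACGTGgc
No factor was measured at these letters, which describe the sequence only.

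**Figure D3:**
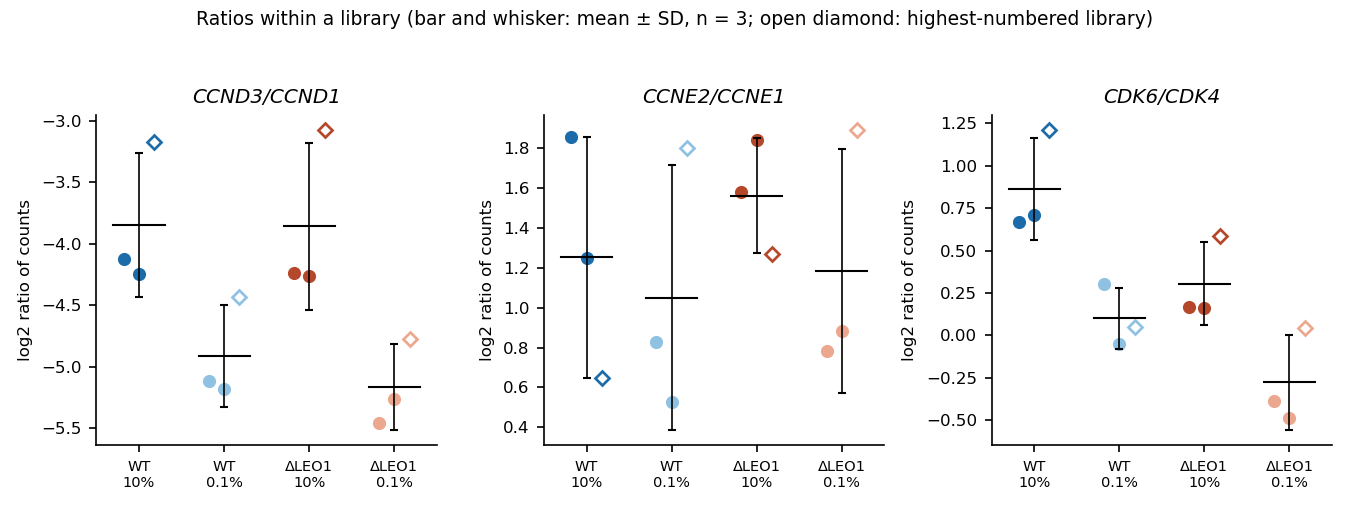
Log2 ratio of counts within each library for CCND3 to CCND1, CCNE2 to CCNE1 and CDK6 to CDK4, by group; circles are the lower-numbered libraries, open diamonds the highest-numbered library, and bars with whiskers the mean ± SD (n = 3). CCND3/CCND1 and CDK6/CDK4 lie lower in 0.1% serum in both genotypes, whereas the CCNE2/CCNE1 libraries overlap in all comparisons.

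The E-type cyclins are classical E2F targets and partners of CDK2. CCNE1 (chr19:29811898-29824308, plus strand) was a low transcript, with 52 to 173 raw counts per library. ERCC-scaled counts were 366, 400 and 149 in WT_10 and 107, 145 and 57.9 in WT_01. In Leo1_10 they were 608, 445 and 363, and in Leo1_01 157, 97.6 and 177. The media were separate in both genotypes, but in wild-type cells only narrowly, with library 3 of WT_10 at 149 beside library 8 of WT_01 at 145. CCNE1 fell by 1.57 ± 0.52 (adjusted p = 0.0169) and by 1.71 ± 0.51 (adjusted p = 0.0105). The wild-type call was lost without library 1, 2, 7 or 9 (adjusted p up to 0.146) and the ΔLEO1 call without library 4 or 10 (up to 0.0842). CCNE1 stood at -0.59 (adjusted p = 0.0877) and -0.49 (adjusted p = 0.165) on the gene scale.

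CCNE2 read 1331, 952 and 233.9 ERCC-scaled counts in WT_10 and 191, 209 and 203 in WT_01. In Leo1_10 it read 1819, 1594 and 876 and in Leo1_01 271, 180 and 660. Libraries 1 and 2 of WT_10 stood at several times the low-serum level, and library 3 stood close to it. CCNE2 fell by 2.06 ± 0.49 (adjusted p = 0.00105) and by 1.95 ± 0.49 (adjusted p = 0.00256), and on the gene scale by 0.90 (adjusted p = 0.0387) and 0.92 (adjusted p = 0.0353). In wild-type cells the media overlapped on the gene scale, with library 3 of WT_10 at 3.48 CPM and the WT_01 libraries at 3.33 to 5.31 CPM. Without library 12 of Leo1_01 CCNE2 fell by 2.66 in ΔLEO1 cells, and without library 10 the call was lost (adjusted p = 0.0545). Exons of INTS8 on the opposite strand cover 37.0% of the exon bases of CCNE2. The log2 ratio of CCNE2 to CCNE1 ranged from 0.53 to 1.89 over the 12 libraries. It differed neither by serum (-0.29, exact permutation p = 0.36) nor by genotype (0.22, exact permutation p = 0.465) beyond the spread between libraries.

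CDK2 (chr12:55966769-55972784, plus strand) encodes the kinase that both the E-type cyclins and CCNA2 activate. It read 5092, 4494 and 2011 ERCC-scaled counts in WT_10 and 1082, 1354 and 1116 in WT_01. In Leo1_10 it read 4318, 3626 and 2212 and in Leo1_01 907, 587 and 2136. The media were separate in both genotypes, but in ΔLEO1 cells library 12 of Leo1_01 came close to the lowest Leo1_10 library. CDK2 fell by 1.71 ± 0.46 in wild-type cells (adjusted p = 0.00368), a call kept with any 1 library left out, and by 1.49 ± 0.46 in ΔLEO1 cells (adjusted p = 0.0125). The latter was lost without library 4, 10 or 11 (adjusted p up to 0.104) and CDK2 fell by 2.18 without library 12. As a share of all transcripts CDK2 fell in wild-type cells by 0.65 (adjusted p = 0.00476) and stood at -0.46 in ΔLEO1 cells (adjusted p = 0.0637).

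CCNA2 (chr4:121816444-121823933, minus strand) encodes cyclin A2, which appears at the onset of S phase. ERCC-scaled counts were 5383, 4545 and 647 in WT_10 and 693, 874 and 965 in WT_01. In ΔLEO1 cells they were 6928, 5904 and 2309 in 10% serum and 865, 460 and 2076 in 0.1% serum. Library 3 of WT_10 thus lay below all WT_01 libraries, and it was also the library with the lowest cycling marker sum, 146 CPM. Library 12 of Leo1_01 lay close to library 6 of Leo1_10, with marker sums of 462 and 332 CPM. Whether the markers account for these values was not tested. CCNA2 fell by 2.06 ± 0.46 (adjusted p = 0.000364) and by 2.16 ± 0.46 (adjusted p = 0.000266). Both calls held with any 1 library left out (adjusted p up to 0.0223 and 0.0166). DESeq2 gave larger adjusted p-values of 0.027 and 0.0203. Without the highest-numbered libraries CCNA2 fell by 2.67 and 3.28, the largest falls of any member there, and without library 12 of Leo1_01 alone it fell by 2.93 in ΔLEO1 cells. Gene-scaled, CCNA2 stood at -0.87 (adjusted p = 0.155) and -1.15 (adjusted p = 0.0555), with values in WT_10 of 43.7, 44.4 and 9.63 CPM.

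The CCNA2 promoter carries the elements for which cell cycle promoters are known. The RefSeq window held 1 CRE (TGACGTCA), 1 CCAAT box on the opposite strand (read as ATTGG) and 1 tandem of a CDE and a CHR element, searched as CGG and TTGAA with any 5 bases between them. All motifs were searched on both strands. These letters occurred in 1.85%, 34.6% and 0.37% of all windows. The stretch chr4:121823934-121824033 (minus strand) lies upstream of the outermost annotated start and holds the CRE and the CCAAT box, and chr4:121823900-121823929 (minus strand) holds the CDE/CHR tandem, all in capitals.
CCNA2 upstream: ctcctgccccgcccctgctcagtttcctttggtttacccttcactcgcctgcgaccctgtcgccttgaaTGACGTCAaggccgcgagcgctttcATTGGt
CCNA2 start: ttcaatagtcgCGGGATACTTGAActgcaa
None of the other windows of these genes held the CDE/CHR letters or the CRE.

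E2F1 (chr20:33675683-33686404, minus strand) encodes the transcription factor that the retinoblastoma protein holds back. It read 2368, 2070 and 615 ERCC-scaled counts in WT_10 and 412, 524 and 451 in WT_01. It read 2487, 2158 and 1177 in Leo1_10 and 536, 273 and 928 in Leo1_01. The media were separate in both genotypes, with library 3 of WT_10 and library 12 of Leo1_01 nearest to the other medium. E2F1 fell by 1.86 ± 0.48 (adjusted p = 0.00218) and by 1.75 ± 0.48 (adjusted p = 0.00545). The wild-type call held with any 1 library left out (adjusted p up to 0.0426), and the ΔLEO1 call was lost without library 4 or 10 (up to 0.0583). Gene-scaled, E2F1 fell by 0.76 in wild-type cells (adjusted p = 0.0287) and stood at -0.68 in ΔLEO1 cells (adjusted p = 0.0587). The wild-type media overlapped on that scale, with library 3 of WT_10 at 9.15 CPM and library 9 of WT_01 at 11.8 CPM.

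E2F1 is known to act on its own promoter, and its window was the only one among these genes with the E2F letters TTTNNCGC. They matched 4 times, once on the gene's strand and 3 times on the other, and they occurred in 6.89% of all windows at least once. The window also held 3 CCAAT boxes. The upstream stretch chr20:33686405-33686515 (minus strand) shows E2F matches and 2 of the CCAAT boxes in capitals, and chr20:33686389-33686418 (minus strand) shows the 3 E2F matches nearest the start, of which the last 2 overlap. The printed stretches share their ends.
E2F1 upstream: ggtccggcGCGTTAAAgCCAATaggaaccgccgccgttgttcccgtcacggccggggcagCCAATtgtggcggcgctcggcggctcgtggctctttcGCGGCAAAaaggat
E2F1 start: GCGGCAAAaaggaTTTGGCGCGTAAAAgtg
CCND3, CCNE1, CDK4 and CDK6 had no match to the E2F letters in their windows, which says only that these letters were absent there.

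Levels can be compared between genes only per length, here as gene-scaled CPM per kilobase of exon. The length counts all annotated exons of a gene, which need not be those of the transcripts present. CCND1 ranked first in every group, with means of 137 ± 8.39 in WT_10, 142 ± 35.5 in WT_01, 170 ± 37.1 in Leo1_10 and 204.03 ± 57.3 in Leo1_01 (SD, n = 3). CDK4 ranked second in every group, at 25.5 to 32.7, and its libraries overlapped neither with those of CCND1 nor with those of the next gene. CDK6, CCNA2, CDK2, CCND3 and E2F1 followed, at 6.17 to 14.1 in 10% serum and at 3.82 to 9.09 in 0.1% serum. Neighbours in this middle group overlapped in their libraries and are not ordered by these data, except that CDK2 lay above CCND3 in WT_01, CCND3 above CDK2 in Leo1_10 and CCND3 above E2F1 in Leo1_01. CCNE2 followed at 0.954 to 2.59 and CCNE1 at 0.790 to 1.48, whose ranges overlapped in all groups but Leo1_10. CCND2 came last at 0 to 0.0562.

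**Figure D4:**
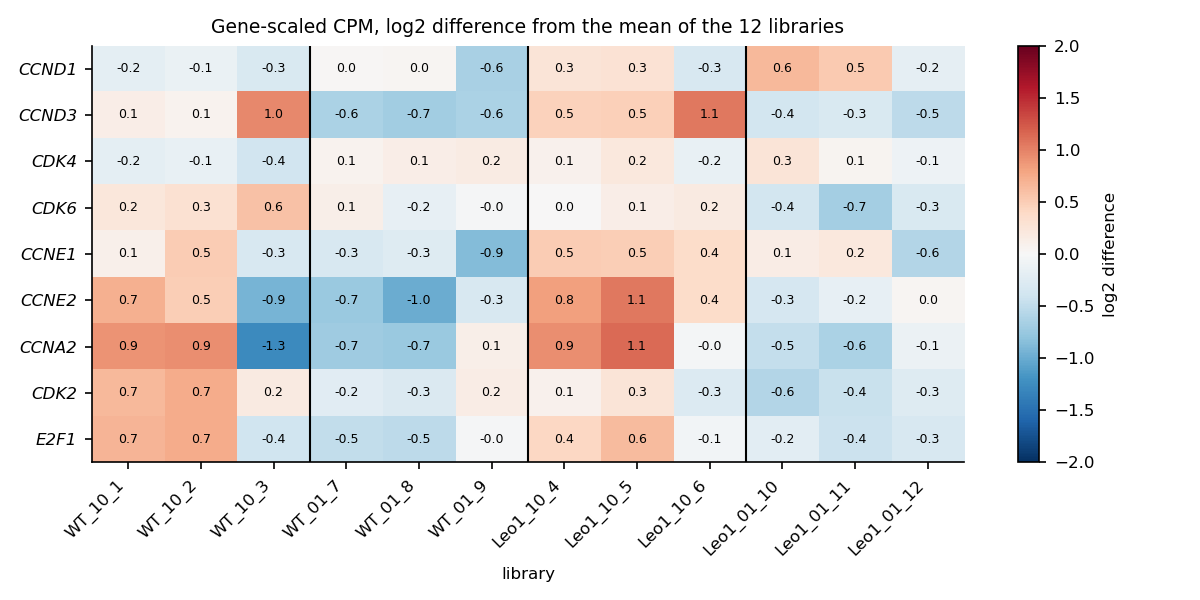
Log2 difference of the gene-scaled CPM of the 9 tested members from their mean over the 12 libraries (red above, blue below), with libraries in columns by group. Library 3 of WT_10 is blue for CCNE2, CCNA2 and E2F1 but red for CCND3 and CDK6, and the low-serum libraries are blue for CCND3 in both genotypes.

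The second question was whether the G1 machinery differed between ΔLEO1 and wild-type cells. On the ERCC scale no tested member passed the test. In 10% serum the log2 differences of Leo1_10 from WT_10 ran from -0.19 (CDK2) to 0.77 (CCNE2), with a median of 0.63 beside 0.35 for all genes. In 0.1% serum those of Leo1_01 from WT_01 ran from -0.09 (CDK6) to 0.88 (CCNE2), with a median of 0.42 beside 0.27. Library 12 of Leo1_01 decided the sign of these medians. Without it the median was -0.19 for the members and -0.27 for all genes, and CCNE2 stood at 0.17, and without all highest-numbered libraries the medians were -0.21 and -0.42. In each medium 0 members passed edgeR's likelihood ratio test after adjustment, 0 had an unadjusted p under 0.05, and the quasi-likelihood test and DESeq2 gave 0 as well. Among all genes 4.64% were lower and 4.20% higher with 10% serum, and 3.59% and 3.85% with 0.1% serum. The intervals were wide. The 95% interval of the log2 difference of CCNE2 reached from -0.19 to 1.73 with 10% serum and from -0.10 to 1.85 with 0.1% serum. For E2F1 the intervals were -0.73 to 1.14 and -0.62 to 1.26, so that changes of that size in either direction were not detectable here. CCND3 was the one member whose 10% serum libraries were separate by genotype, all 3 ΔLEO1 libraries lying above the wild-type ones, as in 23.7% of all genes, with a log2 difference of 0.65 ± 0.45 (adjusted p = 0.488).

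As a share of all transcripts 1 member passed in each medium. CDK2 was lower in Leo1_10 than in WT_10, where 21.8% of all genes were lower and 17.7% higher. Its gene-scaled values were 27.9, 31.5 and 21.7 CPM against 41.3, 44.0 and 29.9 CPM, a log2 difference of -0.51 (adjusted p = 0.0274), and the groups overlapped. CDK6 was lower in Leo1_01 than in WT_01, where 17.6% of all genes were lower and 15.4% higher. Its values were 87.3, 70.9 and 91.3 CPM against 123, 100 and 111 CPM without overlap, a log2 difference of -0.42 (adjusted p = 0.0131). In 10% serum the CDK6 libraries were also separate, at 114, 123 and 129 CPM in ΔLEO1 against 132, 140 and 169 CPM in wild-type cells, and the difference of -0.27 did not pass (adjusted p = 0.114). On the ERCC scale CDK2 and CDK6 gave -0.19 and -0.09 in these comparisons.

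The third question was whether the response to serum itself differed by genotype. The interaction of the members, the ΔLEO1 response minus the wild-type response, ran from -0.45 (CDK4) to 0.22 (CDK2) on the log2 scale. By edgeR's likelihood ratio test 0 members passed after adjustment and 0 had an unadjusted p under 0.05, and the quasi-likelihood test and DESeq2 also gave 0. Of all genes 0.219% passed, and on the gene scale 4.08% did, with 0 members among them. The 95% interval for CDK4 was -1.70 to 0.79. A difference between the genotypes in these responses was thus not detectable within intervals of that width.

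The genes around the G1 machinery were described from 6 lists, by their counts. On the ERCC scale these are to be read beside the 36.1% of all genes that were lower in wild-type and the 47.2% in ΔLEO1 cells. On the gene scale 16.6% and 12.9% of all genes were lower in low serum, and 16.0% and 16.5% higher. Between genotypes 21.8% were lower and 17.7% higher on that scale in 10% serum, and 17.6% and 15.4% in 0.1% serum. Of the 3 pocket proteins, which bind E2F factors, RB1 and RBL1 fell in wild-type cells in low serum and RB1 in ΔLEO1 cells. RB1 fell by 1.64 ± 0.45 in wild-type cells (adjusted p = 0.00423), while RBL2 stood at -0.76 (adjusted p = 0.139). On the gene scale RB1 was the 1 pocket protein of the 3 that passed as lower in low serum, in both genotypes. Of the 9 other members of the E2F and DP family, 6 fell in wild-type and 5 in ΔLEO1 cells, the latter a share near that of all genes, and none rose. E2F2, an activating E2F, fell by 2.40 ± 0.51 in wild-type cells (adjusted p = 0.000185) and E2F7, a repressor, by 1.84 ± 0.47 (adjusted p = 0.00207). E2F6 and TFDP2 moved least, at -0.72 and -0.63, and did not pass. On the gene scale none of the 9 passed by serum in either genotype. Between genotypes in 10% serum E2F5 was lower and E2F7 higher in ΔLEO1 cells, the latter call being lost in the quasi-likelihood test (adjusted p = 0.0654). In 0.1% serum none passed on the ERCC scale, with E2F7 at 1.38 ± 0.47 (adjusted p = 0.0533) and E2F5 at -0.85 ± 0.55 (adjusted p = 0.59). Gene-scaled, E2F5 (-1.15, adjusted p = 0.00248) and TFDP2 (-0.53, adjusted p = 0.00967) were lower and E2F7 (1.25, adjusted p = 0.0109) was higher there.

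Of the 7 CDK inhibitors, 3 fell in each genotype in low serum, a share near that of all genes. CDKN1B, which encodes p27, fell by 1.55 ± 0.45 in wild-type cells (adjusted p = 0.00698) and CDKN2D by 1.40 ± 0.49 (adjusted p = 0.0245). CDKN2A, the gene of p16 and ARF, stood at 0.17 ± 0.47 (adjusted p = 0.749) on the ERCC scale, and on the gene scale it rose by 1.13 (adjusted p = 1.21e-05). CDKN1C stood at -0.20 on the ERCC scale (adjusted p = 0.715). In ΔLEO1 cells CDKN1A, CDKN2A and CDKN2B rose on the gene scale in low serum, and none of the 7 rose on the ERCC scale. CDKN2B, the gene of the CDK4 and CDK6 inhibitor p15, was higher in ΔLEO1 cells in both media, in 0.1% serum by 1.37 ± 0.46 (adjusted p = 0.0454, and 0.072 in the quasi-likelihood test). In the fit of all libraries the largest log2 difference of the 7 in 0.1% serum was 1.39, in a gene other than CDKN2B that did not pass. Without the highest-numbered libraries the CDKN2B call was lost, at 0.91 (adjusted p = 0.0563), and CDKN1C passed at 1.16 (adjusted p = 0.0179). CDKN1A, the gene of p21, was lower in ΔLEO1 cells in 10% serum, and stood at -0.93 ± 0.45 in 0.1% serum (adjusted p = 0.305), where the gene scale gave -1.18 (adjusted p = 2.5e-10).

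Of 13 genes that activate cyclin-CDK complexes or turn their parts over, 6 fell in wild-type cells, near the share of all genes, and 11 in ΔLEO1 cells. As shares of all transcripts 3 fell in wild-type cells, against 16.6% of all genes. In ΔLEO1 cells 1 fell, SKP2, against 12.9%. SKP2, the F-box protein that directs p27 to degradation, fell by 2.57 ± 0.45 in wild-type cells (adjusted p = 5.04e-06) and by 1.55 on the gene scale (adjusted p = 5.92e-06). CDC25A, the phosphatase that activates CDK2, fell by 1.63 ± 0.50 (adjusted p = 0.0111). AMBRA1 and CUL1, which serve in the ubiquitin ligases for D-type cyclins and for p27, moved least at -0.73 and -0.70 and did not pass. No gene of this list passed between genotypes on the ERCC scale in either medium, with SKP2 at 1.22 ± 0.45 in 0.1% serum (adjusted p = 0.096). Gene-scaled, 2 were lower (FBXO31 and WEE1) and 4 higher (CCNH, CDC37, CDK7 and SKP2) in 10% serum, against 21.8% and 17.7% of all genes. In 0.1% serum 1 was lower (FBXW7) and 3 higher (CCNH, CDC37 and CDK7), against 17.6% and 15.4%. Without the highest-numbered libraries CDK7 and SKP2 passed as higher in 10% serum and FBXW7 as lower in 0.1% serum on the ERCC scale.

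Of 22 E2F target genes, most of which act in replication or nucleotide supply, 20 fell in each genotype. The list median was -1.65 in wild-type and -1.46 in ΔLEO1 cells, beside -0.97 and -1.05 for all genes. MYBL2 fell by 2.49 ± 0.46 (adjusted p = 1.22e-05) and the replication licensing factor CDC6 by 2.18 ± 0.47 (adjusted p = 0.000221) in wild-type cells. POLA1 and RBBP4 were the exceptions there, at -0.997 and -0.80. On the gene scale 4 of the 22 fell in wild-type cells, against 16.6% of all genes, and 2 in ΔLEO1 cells, against 12.9%. Both counts are shares near those of all genes. The list medians on that scale were -0.53 in wild-type and -0.42 in ΔLEO1 cells, beside 0.00 and 0.01 for all genes. Of the 22 genes 20 were negative in wild-type and 19 in ΔLEO1 cells. In 0.1% serum MYBL2 was higher in ΔLEO1 than in wild-type cells, by 1.37 ± 0.46 (adjusted p = 0.0442, and 0.071 in the quasi-likelihood test), with a list median of 0.74 beside 0.27 for all genes. CDC6 stood at 1.27 ± 0.47 (adjusted p = 0.0884). By the gene scale it was CDC6 that passed, at 0.90 (adjusted p = 0.0363), and MYBL2 stood at 0.94 (adjusted p = 0.121). Without the highest-numbered libraries the list median on the ERCC scale was 0.09, beside -0.42 for all genes. There 7 of the 22 were negative, and MYBL2 still passed as higher. The cycling marker sum, of which PCNA is also on this list, was 193 to 330 CPM in WT_01 and 305 to 462 CPM in Leo1_01, and its part in these values was not tested.

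Of 13 cyclins and kinases of other steps, 11 were tested, CCNA1 and CDK3 having at most 8 counts in a library. In low serum 5 of the 11 fell in wild-type cells, near the share of all genes, and 7 in ΔLEO1 cells. Gene-scaled, CCNC, CCNF and CDK8 (3 genes) fell in each genotype, against 16.6% of all genes in wild-type and 12.9% in ΔLEO1 cells. CDK14 rose in ΔLEO1 cells, against 16.5%. CCNF, an F-box cyclin of later cell cycle phases, fell by 2.33 ± 0.47 (adjusted p = 7.51e-05) and CDK8, a Mediator kinase, by 1.65 ± 0.48 (adjusted p = 0.00698). CCNG1 and CCNG2 stood at -0.69 and -0.62 and did not pass. CDK14 was lower in ΔLEO1 cells in 10% serum and stood at -1.37 ± 0.47 in 0.1% serum (adjusted p = 0.0565).

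**Figure D5:**
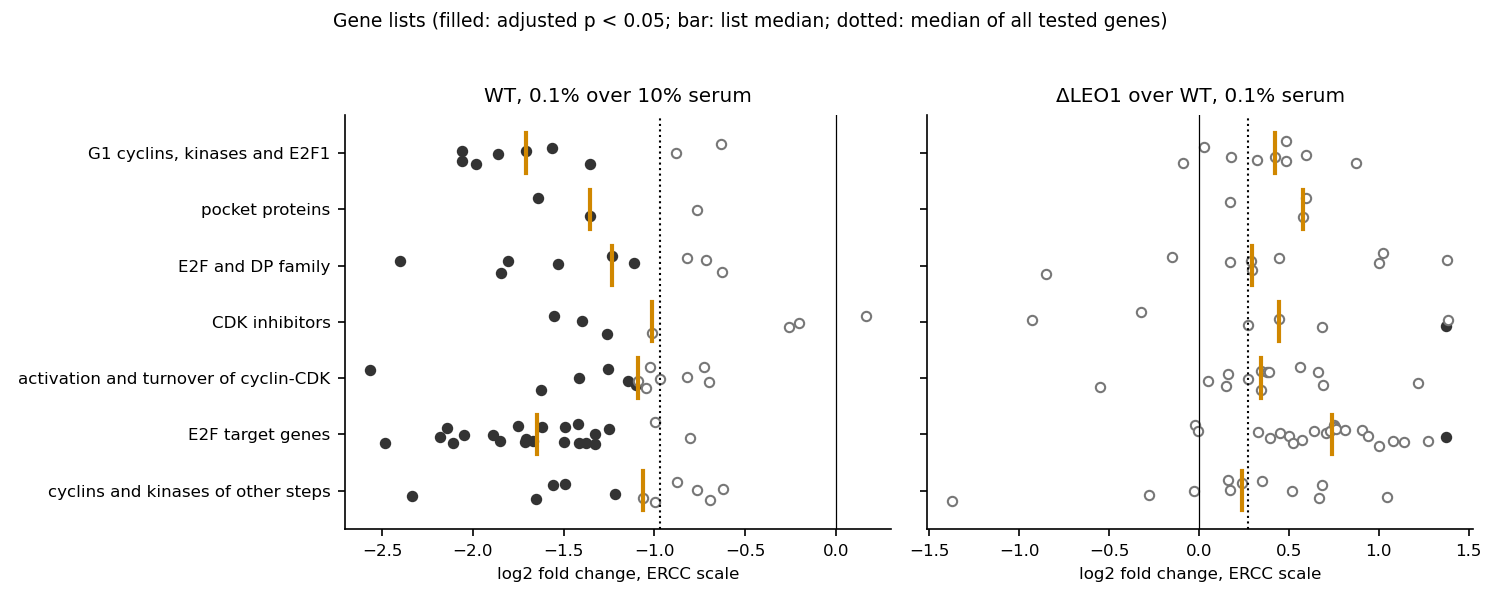
Log2 fold change on the ERCC scale of the 9 tested members and of the genes of 6 lists, for 0.1% over 10% serum in wild-type cells (left) and for ΔLEO1 over wild-type cells in 0.1% serum (right). Filled points have an adjusted p under 0.05, bars mark the list median and the dotted line the median of all tested genes; the members and the E2F target genes lie mostly left of that line on the left, and on the right only CDKN2B and MYBL2 are filled.

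The course of each tested member over the 12 libraries was also set beside that of all genes with a symbol and a mean of at least 10 CPM, as log2 gene-scaled CPM. These correlations describe 12 libraries that share their groups, depth and the highest-numbered libraries. CCNA2 ran most like MAD2L1 (Pearson r = 0.985), MCM5 (0.984) and CCNB1 (0.982), and CCNE2 most like CLSPN (0.987), STIL (0.987) and CEP55 (0.983). E2F1 ran most like ZNF367 (0.967), LSM4 (0.967) and RRM1 (0.960). The nearest genes of the other members were as follows. CCND1 ran most like PXN (0.979), UAP1 (0.963) and CCDC47 (0.936), CCND3 most like HSPA2 (0.984), TNFAIP1 (0.976) and ZFAND5 (0.972). CDK4 ran most like TMEM201 (0.933), NLE1 (0.926) and METAP2 (0.925), and CDK6 most like SLC17A5 (0.963), SEC24D (0.954) and SIAH2 (0.946). CCNE1 ran most like GOLT1B (0.929), ALYREF (0.926) and BZW1 (0.919), and CDK2 most like TMEM131L (0.957), BRI3BP (0.947) and MRPS11 (0.944). Among the members, CCNA2 and E2F1 (0.940), CCNA2 and CCNE2 (0.925) and CCNE2 and E2F1 (0.867) ran closest together. On this gene scale CDK4 and CDK6 had a negative coefficient (-0.605), as did CCND1 and CDK6 (-0.574) and CCND3 and CDK4 (-0.542). CCND1 and CCND3 had a coefficient near 0 (-0.132).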

How the data were processed

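RNA was measured in 12 libraries of poly(A) RNA from BJ-5ta fibroblasts with added ERCC transcripts. The authors deposited 1 table of raw counts per gene, made with STAR and featureCounts 1.5.1 on GRCh38. The STAR version is 2.7.10a in the submitters' processing notes. Counts were used as deposited, and 91 of the 92 ERCC transcripts had counts. A gene was tested where at least 3 libraries exceeded 1 CPM, which left 13236 genes, fitted in edgeR 4.0.16 (R 4.3.3) with 4 group coefficients and library sizes from the ERCC transcripts (total times TMM factor), as in the study's methods, which name no test within edgeR. Two-sided likelihood ratio tests were adjusted by Benjamini-Hochberg over all 13236 genes, and SEs are Wald SEs. Within-library ratios used counts plus 0.5 and exact permutation within the other factor (400 arrangements). The fits were tested on simulated data. Alternatives were the quasi-likelihood test, DESeq2 1.42.0, TMM on genes, other ERCC size factors, no filter, the libraries that stand apart left out, the lower-numbered pair summed, and each library left out.

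Members, lists and tests were chosen with earlier results of these data known. Named genes were the members, LEO1, for each list the 2 highest and 2 lowest log2 changes in WT_01 against WT_10 and in Leo1_01 against WT_01, and 3 genes most like each member. A gene named outside that rule was chosen after its values were seen. Gene lengths and overlaps come from GENCODE, and promoter windows from RefSeq. Depth was 26240632 to 45315560 counts per library.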

Additional observations from a re-analysis of the deposited data

How the results depend on the processing

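Of 315 values, from 45 member fold changes under 7 other settings, 262 kept their direction and their side of the threshold. With TMM on the genes, the members called lower in Leo1_01 numbered 3, CDK4 was the 1 member called higher in WT_01, and 1 member was called lower in ΔLEO1 cells in each medium. The sign turned for CCND1 (0.053 in wild-type, 0.27 in ΔLEO1 cells) and CDK4 (0.36 and 0.023) by serum. It turned for CDK6 (-0.27) and E2F1 (-0.069) by genotype in 10% serum, and for CDK4 (-0.042), CCNA2 (-0.0052) and CDK2 (-0.31) in 0.1% serum. In the interaction it turned for CCND1 (0.21), CCND3 (0.019), CCNE1 (0.10) and CCNE2 (-0.020). Without the highest-numbered libraries it turned by genotype in 0.1% serum for CCND3 (-0.11), CDK4 (-0.35), CCNA2 (-0.24), CDK2 (-0.71) and E2F1 (-0.21), and in the interaction for CCNE2 (-0.41), CDK2 (-0.43) and E2F1 (-0.28). The causes were not tested. With the lower-numbered pair summed, 1 member was called lower in wild-type and 0 in ΔLEO1 cells, in fits of 2 libraries a group. The sign turned there for CDK6 in 0.1% serum (0.21) and in the interaction for CCND1 (0.20), CCND3 (0.073), CDK6 (0.085), CCNE1 (0.013) and CCNA2 (0.0091). Over all genes, 4901 were called by serum in wild-type and 6382 in ΔLEO1 cells, against 9704 and 12344 without the highest-numbered libraries, 667 and 250 with the pair summed, and 4314 and 3900 with TMM on the genes. By genotype 1170 in 10% and 984 in 0.1% serum were called, against 5224 and 4366 with TMM on the genes, 1924 and 2573 without the highest-numbered libraries, 642 and 598 with the pair summed, and 1918 and 1544 with no filter. The interaction gave 29 genes, and 540, 132, 9 and 26 in these 4 settings. With no filter 1 member, CCND2, was called lower in ΔLEO1 cells in each medium.

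With each library left out in turn, the members called lower numbered 5 to 8 in wild-type and 2 to 9 in ΔLEO1 cells (3 without library 4 of Leo1_10, 2 without library 10 and 5 without library 11 of Leo1_01), and 0 by genotype throughout. Fold changes that changed sign in these fits ranged from -0.50 to 0.074 (CDK2), -0.035 to 0.24 (CDK6) and -0.19 to 0.54 (E2F1) by genotype in 10% serum. In 0.1% serum they ranged from -0.35 to 0.80 (CCNA2), -0.66 to 0.36 (CDK2), -0.21 to 0.49 (CDK4), -0.72 to 0.28 (CDK6) and -0.19 to 0.66 (E2F1). In the interaction they ranged from -0.87 to 0.40 (CCNA2), -0.39 to 0.25 (CCND1), -0.61 to 0.12 (CCND3), -0.44 to 0.19 (CCNE1), -0.61 to 0.55 (CCNE2), -0.47 to 0.55 (CDK2), -0.82 to 0.18 (CDK6) and -0.40 to 0.51 (E2F1). The ratio of CCND3 to CCND1 by genotype ranged from -0.33 to 0.034.

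Without the highest-numbered libraries the ratio differences were -4.23 (CCND2 to CCND1 by genotype), 1.42 (the same by serum), -1.04 (CCND3 to CCND1 by serum), -0.54 and -0.58 (CDK6 to CDK4 by genotype and by serum). With 2 libraries a group the smallest possible exact p is 0.0556, so none could pass there. With all libraries the CCND2 ratios differed by -4.01 by genotype (exact permutation p = 0.005, adjusted p = 0.0133) and by 1.27 by serum (exact permutation p = 0.02, adjusted p = 0.032). They rest on libraries at 0 counts and on the 0.5 counts added, and could not be computed without these added counts. No paired analysis was possible because the libraries are numbered 1 to 12 and no number is shared between groups. At 0 to 17 counts a library, CCND2 was left out of the main fit. It was compared over summed groups, in the fit with no filter and as a ratio to CCND1.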
